A study of Mus musculus with 6 samples.

Results

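The 56 genes described here mark cells that copy their DNA or divide, and were read in flow-sorted basal cells of the back skin epidermis of mice, among 24972 entries of the deposited gene table. They were taken by symbol, not by a threshold on their values, and comprise 25 genes of DNA replication and the G1/S step and 31 genes of mitosis. All 56 were found in the table and all 56 passed the filter on low values, a mean of at least 10 normalized counts over the 6 libraries that 12239 genes in all passed. The study compared 3 Piezo1 cKO libraries with 3 control libraries. Animals of both groups carried p63CreER, a Cre recombinase that tamoxifen switches on in cells expressing p63, together with Piezo1fl/fl and the membrane reporter R26-mTmG. The cKO animals had tamoxifen (3 injections, 20 ug per dose, on postnatal days 45 to 52) and the controls had vehicle, so loss of the channel gene and exposure to the drug cannot be told apart. Age at collection and the sorting gate are not stated in the labels, which also do not say whether each library is a separate animal, so p-values measure the spread between libraries, part of which may be technical.

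The epidermis renews itself from its basal layer, where keratinocytes either divide or leave the layer and differentiate. Cells that enter the cycle first express the genes of DNA replication under E2F transcription factors: the MCM helicase is loaded on origins by Cdc6 and Cdt1 and activated by Cdc45 and the GINS complex. Later, in G2 and mitosis, the genes of cyclin B and Cdk1, of the kinetochore, of the spindle and of cytokinesis are switched on together, through promoters that hold a CHR element and CCAAT boxes. In a bulk sample their RNA follows the share of cells in those phases as well as the RNA per cell, and these cannot be told apart here.

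Sequencing depth was uneven. The 3 cKO libraries held about 1.05, 15.6 and 14.2 M reads (replicates 1, 2 and 3), and the controls 20.8 to 24.5 M reads, as estimated from the step between low values. A read in cKO replicate 1 was worth 12.3 normalized counts, so 12 of the 56 genes rested on fewer than 10 reads there, and 5 (Mcm10, Cdc6, Cdc45, Ccne2 and Dtl) on about 3 or fewer. Xist and Y-linked transcripts showed female RNA in cKO replicates 1 and 2 and control replicate 1 and male RNA in cKO replicate 3 and control replicates 2 and 3, so the groups differ in sex. Krt5, the keratin of the basal layer, was abundant in every library, at 266942, 233938 and 230864 normalized counts in cKO replicates 1, 2 and 3, against 260877, 239341 and 228148 in control replicates 1, 2 and 3. Trp63, which encodes p63, was at 7879.6, 9939 and 8608 in cKO, against 7312, 5440.3 and 5990.1 in control. It was higher without overlap (log2 fold change 0.50, SE 0.21, limma adjusted p = 0.744). The other basal markers did not follow it: the integrin gene Itga6 was at 5191, 11897 and 11301 in cKO, against 11313, 14938 and 17601 in control (-0.70, SE 0.36), and its partner Itgb4 at 9873, 9725 and 8306 in cKO, against 12063, 10211 and 11852 in control, lower without overlap (-0.29, SE 0.19). Krt14 gave 0.097 and Col17a1 -0.13, and none of the 6 basal markers passed adjustment. Among all genes tested 5.16% were higher and 5.7% lower in cKO without overlap. As a check of the labels, Piezo1 itself stood at 380.3, 565 and 399 in cKO, against 806, 1098 and 1476 in control, with no overlap (log2 fold change -1.31, SE 0.27, limma adjusted p = 0.744, two-sided exact permutation p = 0.1, the smallest that 3 against 3 allows).

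None of the 56 genes differed between cKO and control once p was adjusted over all 12239 genes tested with limma (smallest adjusted p = 0.744), and 0 of the 56 reached an unadjusted p under 0.05. Among all genes tested, 0% were called at an adjusted p of 0.05, while 1.47% were higher and 3.46% lower in cKO at an unadjusted p under 0.05. With limma-voom on approximate reads 0 of the 56 passed adjustment and 1, Ttk, reached an unadjusted p under 0.05 with a higher value, where 3.54% of all genes were higher and 1.82% lower at that p. The mitosis genes had a median log2 fold change (cKO minus control) of 0.23, with 24 of 31 fitted values higher, and the DNA replication genes one of 0.15, with 16 of 25 higher. The median over all genes tested was -0.03, with 47.1% higher. All 56 of the 95% intervals held 0. They lay inside a 2-fold change in either direction for 12 of the 31 mitosis genes and 7 of the 25 replication genes. For the others a change of 2-fold in at least 1 direction could not be detected, or set aside, with these libraries.

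**Figure D1:**
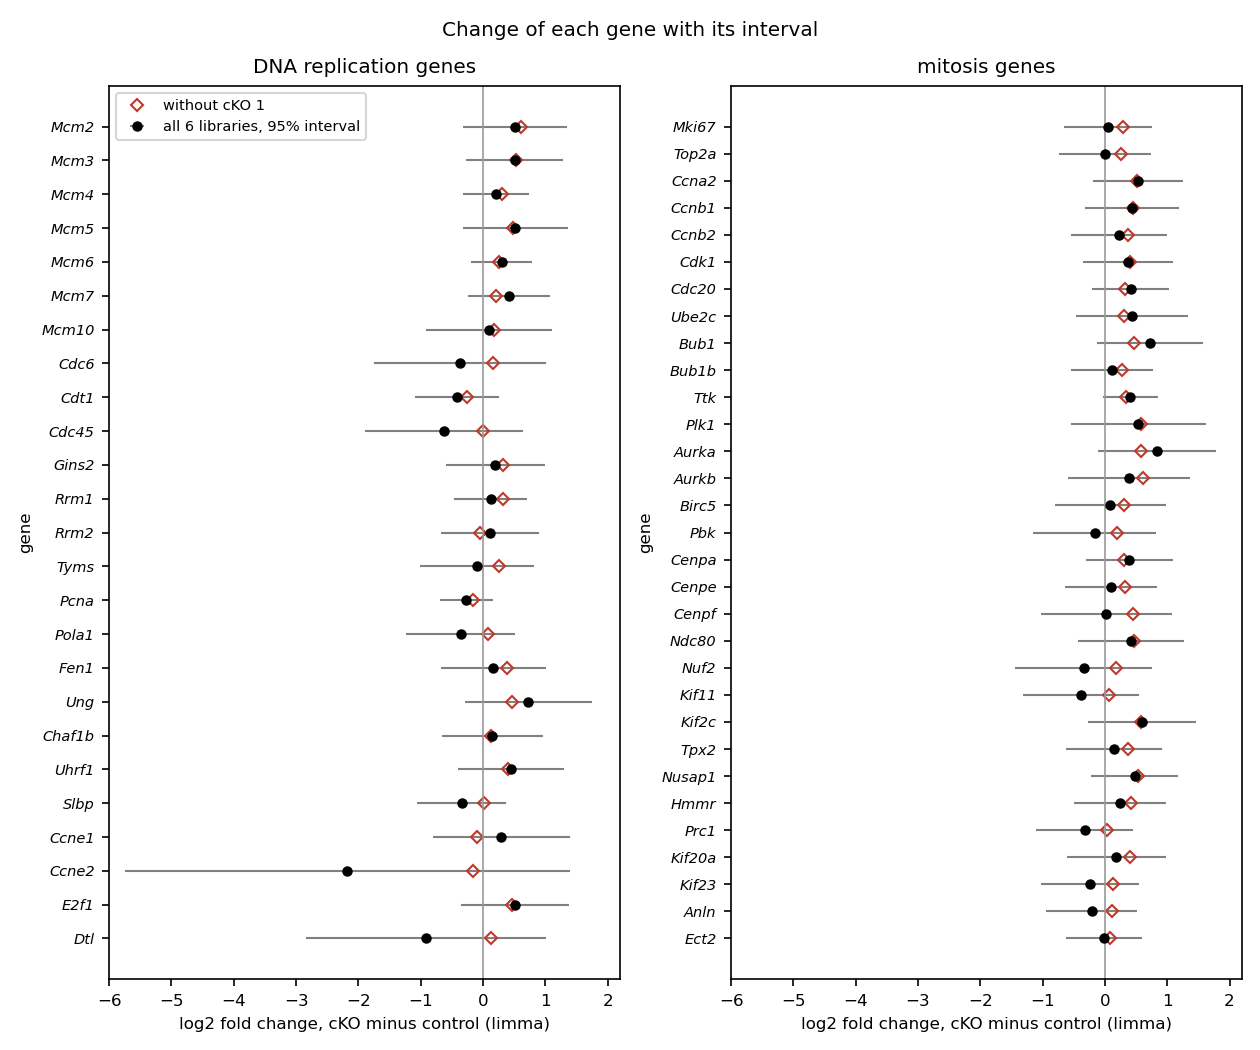
Log2 fold change (cKO minus control, limma) of each cell cycle gene, with DNA replication genes in the left panel and mitosis genes in the right. Filled points are the fit to all 6 libraries with the 95% interval, and open diamonds are the fit without cKO replicate 1; every interval crosses 0, and Ccne2 and Dtl, which had 0 and about 1 read in cKO replicate 1, have the widest.

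The sign of the medians depended on single libraries. Without control replicate 3 the mitosis median was -0.05 and the replication median -0.03, and without cKO replicate 3 they were 0.05 and -0.08. Without the shallow cKO replicate 1 they were 0.34 and 0.21, and then all 31 mitosis genes had higher fitted values, against 49.5% of all genes, though 0 passed adjustment. Pairs of mitosis genes had a median r of 0.94 over those 5 libraries, so the 31 are not independent observations. In that fit 7 of the 25 replication and 7 of the 31 mitosis genes turned sign. Without control replicate 1 the mitosis median was 0.47. There 8 of the 31 mitosis genes had an unadjusted limma p under 0.05, all higher, where 2.52% of all genes did. Control replicate 1 was the highest control in all 31 mitosis genes, so leaving it out could only raise their fold changes. The count of 8 is therefore no separate support for a difference. Those 8, named here after their values were seen, were Ccna2, Ccnb1, Cdk1, Cdc20, Bub1, Aurka, Kif2c and Nusap1, with adjusted p = 0.513 to 0.591 in limma.

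The proliferation antigen gene Mki67 and the topoisomerase gene Top2a, which untangles chromosomes before they part, gave the same picture of libraries that differ more within a group than between groups. Mki67 stood at 2154, 3281 and 3954 normalized counts in cKO replicates 1, 2 and 3, against 4182, 2558 and 2383 in control replicates 1, 2 and 3. The highest value was in a control and the lowest in cKO, and the groups overlapped throughout (log2 fold change 0.044, SE 0.30, 95% interval -0.66 to 0.75). Top2a was at 1509, 2405 and 2830.5 in cKO, against 3105, 2071 and 1595 in control, again with control replicate 1 on top and cKO replicate 1 at the bottom (0.00091, SE 0.32). The sign of both turned negative without cKO replicate 2, cKO replicate 3, control replicate 2 or control replicate 3, and that of Top2a also with a sex term in the fit. Per kilobase of exon, which allows levels of different genes to be compared, Mki67 averaged 311 normalized counts in cKO and 302 in control and Top2a 249 and 250.4, placing them at ranks 2 and 4 of the 56 genes in control.

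The cyclins of G2 and mitosis, their kinase Cdk1 and the machinery that ends their action all had higher fitted values in cKO, 6 of 6, with a median log2 fold change of 0.42. Ccna2, cyclin A2, which acts in S phase and at the entry to mitosis, was at 594, 478 and 711 normalized counts in cKO replicates 1, 2 and 3 and at 632, 369 and 287 in control replicates 1, 2 and 3. All 3 cKO values lay above control replicates 2 and 3, while control replicate 1 lay between them (log2 fold change 0.53, SE 0.31, 95% interval -0.20 to 1.26). Ccnb1, cyclin B1, the partner of Cdk1 at mitotic entry, stood at 667, 596 and 805 in cKO, against 789, 516 and 319 in control (0.43, SE 0.32). The controls alone spanned more than 2-fold in both genes. The other 4 were Ccnb2 at 0.23, Cdk1 at 0.38, Cdc20, the activator of the anaphase-promoting complex, at 0.41, and Ube2c, the ubiquitin-conjugating enzyme of that complex, at 0.43 on the log2 scale. None passed adjustment.

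Among the spindle checkpoint and mitotic kinase genes 7 of 8 had higher fitted values (median log2 fold change 0.39). Ttk, the checkpoint kinase also called Mps1, was the 1 gene of the 56 whose groups did not overlap, at 326, 283 and 285 normalized counts in cKO, against 236, 214 and 222 in control. Its log2 fold change was 0.41 (SE 0.19, 95% interval -0.034 to 0.85, limma adjusted p = 0.744). Groups that do not overlap were found at 5.16% of all genes tested with cKO higher and 5.7% with cKO lower, so 1 of 56 with cKO higher and 0 of 56 with cKO lower is not more than the background. Bub1b, the checkpoint protein BubR1, was at 343, 422 and 539.8 in cKO and 549, 379 and 298 in control (0.11, SE 0.28). The checkpoint kinase gene Bub1 gave 0.72 (SE 0.36), the centrosome kinase gene Aurka 0.83 (SE 0.41), the mitotic kinase gene Plk1 0.54 (SE 0.46), Aurkb of the chromosomal passenger complex 0.38 (SE 0.42), its partner survivin, Birc5, 0.087 (SE 0.39) and the kinase gene Pbk -0.16 (SE 0.42), or 0.19 without cKO replicate 1. For Bub1 and Aurka the highest value of all was in the shallow cKO replicate 1, and without it they were 0.47 and 0.58.

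Of 5 centromere and kinetochore genes 4 had higher fitted values, with a median log2 fold change of 0.10, or 0.32 without cKO replicate 1. Cenpa, the histone variant that marks centromeres, was at 431, 297 and 430.4 in cKO, against 384, 326 and 195 in control (log2 fold change 0.39, SE 0.30). Cenpf, a large kinetochore protein, was at 346, 882 and 805 in cKO, against 1053, 549 and 406 in control (0.022, SE 0.45). Its lowest value was in cKO replicate 1 and its highest in control replicate 1. The kinetochore motor gene Cenpe gave 0.096, and the subunits of the NDC80 complex, which binds microtubules, gave 0.42 for Ndc80 and -0.34 for Nuf2. Nuf2 rested on about 6 reads in cKO replicate 1 and was at 0.18 without it.

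Spindle genes had higher fitted values in 4 of 6 (median log2 fold change 0.19, or 0.39 without cKO replicate 1) and cytokinesis genes in 1 of 4 (median -0.12, or 0.12 without it). Kif2c, a kinesin that takes microtubules apart at centromeres, was at 233, 174 and 278 normalized counts in cKO and 245, 136 and 96.8 in control (0.60, SE 0.37). Prc1, which bundles microtubules of the central spindle, was at 467, 962 and 1003 in cKO and 1280.3, 862 and 796 in control (-0.32, SE 0.33). The remaining spindle genes were Kif11 at -0.38, Tpx2 at 0.15, Nusap1 at 0.48 and Hmmr at 0.24, none of them past adjustment. In cytokinesis, Kif23, a motor of the central spindle, was at 389.9, 766 and 931 in cKO, against 954, 758 and 629 in control (-0.24, SE 0.34). Anln, anillin of the contractile ring, was at 1141, 2215 and 2329.9 in cKO, against 2619, 2113 and 1667 in control (-0.22, SE 0.31). Ect2, which switches on RhoA at the furrow, gave -0.018, or 0.077 without cKO replicate 1, and Kif20a 0.18. In Kif23, Anln, Prc1 and Kif11 the lowest value of all was in cKO replicate 1, and without that library their log2 fold changes were 0.13, 0.12, 0.04 and 0.07.

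**Figure D2:**
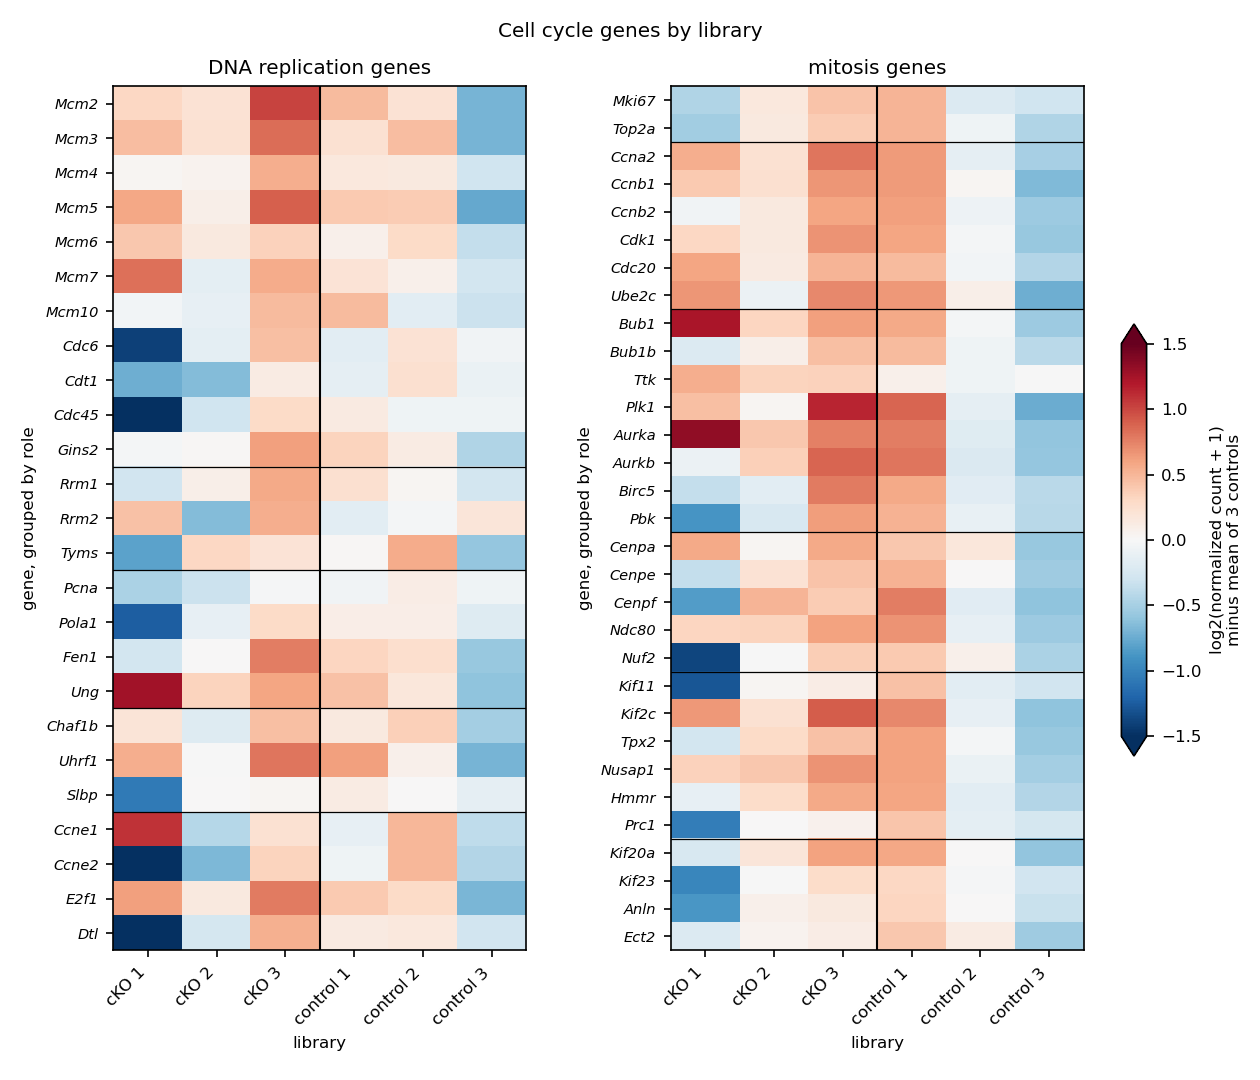
Log2(normalized count + 1) of each gene minus its mean over the 3 controls, with 3 cKO columns left of 3 control columns, DNA replication genes in the left panel and mitosis genes in the right, lines between roles, and colours held at 1.5 in either direction. Mitosis genes are high together in control 1 and cKO 3 and low together in control 3, while cKO 1 is high for some genes and low for others.

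In cKO replicate 1 the mitosis genes split. The rank correlation across the 31 genes between exon length and the value against the control mean was -0.55, 0.05 and -0.71 in cKO replicates 1, 2 and 3, against -0.44, 0.08 and 0.35 in control replicates 1, 2 and 3 (Spearman, across genes, which are not independent). Over the 25 replication genes it was -0.22, 0.40 and 0.07 in cKO, against 0.27, -0.23 and -0.05 in control. Shorter mitosis genes thus lay higher in 2 cKO libraries and 1 control library, which the replication genes did not share, and the part of length in these values was not tested.

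The mitosis genes varied together from library to library. The median correlation between pairs of mitosis genes over 6 libraries was r = 0.75, and over the 5 libraries without cKO replicate 1 it was 0.94, with all 465 pairs above 0. Pairs share their libraries, depth and base composition, so this describes these libraries only. Ccnb2 followed the rest of its list most closely (r = 0.999 over 6 libraries), followed by Bub1b (0.99), and Ttk least (0.24). The promoters of these genes can be read in RefSeq windows of 300 bases on GRCm38.p6, from 250 before to 50 after the annotated start, found for 26 of the 31 mitosis and 22 of the 25 replication genes. Shown here are the 150 bases before the start, 5′ to 3′ on the gene's strand, for the 2 mitosis genes most like the rest of their list whose single window holds a CHR match there. Capitals mark matches on either strand to CHR (TTTGAA or TTCGAA), to the CCAAT box (CCAAT) and to E2F (TTTCCCGC or TTTGGCGC or TTTCGCGC or TTTGCCGC). Cdk1 lies at chr10:69352913-69353062 on the minus strand and Top2a at chr11:99024190-99024339 on the minus strand.
Cdk1: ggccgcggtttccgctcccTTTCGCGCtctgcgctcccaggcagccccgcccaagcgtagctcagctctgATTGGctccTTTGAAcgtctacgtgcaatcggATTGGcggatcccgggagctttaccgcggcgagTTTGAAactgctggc
Top2a: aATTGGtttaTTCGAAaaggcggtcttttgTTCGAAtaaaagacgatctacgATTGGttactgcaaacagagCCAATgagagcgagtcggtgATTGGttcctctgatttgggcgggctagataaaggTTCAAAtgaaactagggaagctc
The Cdk1 stretch holds 2 CHR matches, 2 CCAAT boxes and 1 E2F match, and the Top2a stretch 3 CHR matches and 4 CCAAT boxes. Over the whole windows, CHR was found in 23 of 28 windows of mitosis genes (82.1%), against 4 of 25 of replication genes (16%), 13.8% of the 12283 windows of genes tested and 19.2% of all 32851 windows. CHR and CCAAT occurred together in 20 of the 28 mitosis windows (71.4%), against 12% of replication windows and 5.70% of windows of genes tested. Of 33 CHR matches in mitosis windows 18 began before the start and 15 after it. Matches of different motifs may overlap and each was counted, and a match describes letters and no binding.

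Pairs of DNA replication genes had a median correlation of r = 0.45 over 6 libraries and 0.73 without cKO replicate 1, and Fen1, the flap endonuclease of lagging strand synthesis, followed the rest of its list most closely (0.96). Helicase genes had higher fitted values in 8 of 11 (median log2 fold change 0.21). Mcm3, a subunit of the MCM helicase, was at 337, 286 and 436 normalized counts in cKO replicates 1, 2 and 3, against 287, 337 and 150.4 in control replicates 1, 2 and 3 (0.51, SE 0.34, 95% interval -0.27 to 1.29). Control replicate 3 stood apart at the low end and the others overlapped. Mcm6 was at 935, 786 and 899 in cKO, against 744, 862 and 551 in control (0.30, SE 0.21). The other subunits gave 0.51 for Mcm2, 0.21 for Mcm4, 0.52 for Mcm5 and 0.41 for Mcm7, so all 6 of the ring had positive values and none passed adjustment. Mcm10, which helps to start the forks, gave 0.10 and Gins2, a subunit of GINS, 0.20. The origin licensing genes Cdt1 (-0.42) and Cdc6 (-0.36) and the helicase activator gene Cdc45 (-0.63) had negative values. For Cdc6 and Cdc45 these values rested on about 1 and 2 reads in cKO replicate 1, and without it they were 0.16 and -0.0036.

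Capitals mark the same motifs in the 150 bases before the start of the 2 replication genes most like the rest of their list whose single window holds an E2F match there. Pola1, the catalytic subunit of DNA polymerase alpha, lies at chrX:93632156-93632305 on the minus strand and Cdc6 at chr11:98908001-98908150 on the plus strand.
Pola1: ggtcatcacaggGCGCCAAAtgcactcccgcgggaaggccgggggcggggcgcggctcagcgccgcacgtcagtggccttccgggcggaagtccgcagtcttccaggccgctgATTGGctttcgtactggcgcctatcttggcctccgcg
Cdc6: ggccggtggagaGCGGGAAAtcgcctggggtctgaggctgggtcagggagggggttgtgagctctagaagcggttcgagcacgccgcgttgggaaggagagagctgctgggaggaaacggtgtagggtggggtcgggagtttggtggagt
Both have 1 E2F match, and that of Pola1 is joined by 1 CCAAT box. An E2F match was found in 9 of 25 windows of replication genes (36%), against 1 of 28 of mitosis genes (3.57%), 3.85% of windows of genes tested and 2.26% of all windows. CCAAT boxes were common in both lists, in 16 of 25 replication windows (64%) and 22 of 28 mitosis windows (78.6%), against 37.8% of windows of genes tested.

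Pcna, the sliding clamp of DNA polymerases, had the highest level per kilobase of exon of the 56 genes, 834 normalized counts per kilobase in cKO and 998 in control. Its values were 1722, 1909.9 and 2370.3 normalized counts in cKO replicates 1, 2 and 3, against 2310.4, 2588 and 2285 in control replicates 1, 2 and 3. cKO replicate 3 lay within the control range and the other cKO values below it (log2 fold change -0.27, SE 0.18, 95% interval -0.70 to 0.16). Ung, which removes uracil from DNA, was at 102, 53.5 and 64.4 in cKO, against 57.7, 47.7 and 27.5 in control (0.73, SE 0.44). Its highest value was about 8 reads in cKO replicate 1, and without that library the log2 fold change was 0.46. Pola1 gave -0.36 and Fen1 0.17, or 0.080 and 0.39 without cKO replicate 1.

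In nucleotide supply, Rrm1, the large subunit of ribonucleotide reductase, was at 782, 1008 and 1408 normalized counts in cKO, against 1126, 971 and 787 in control (log2 fold change 0.12, SE 0.25). Its partner Rrm2 gave 0.11 and Tyms, thymidylate synthase, -0.095, or -0.055 and 0.26 without cKO replicate 1. In chromatin and histone supply, Uhrf1, which guides maintenance DNA methylation, was at 474, 322 and 567 in cKO, against 498, 342 and 199.6 in control (0.45, SE 0.37). Slbp, the protein that binds the stem-loop of histone mRNAs, was at 269, 563 and 572 in cKO, against 612, 564 and 513 in control (-0.34, SE 0.31), and only cKO replicate 1 lay outside the range of the other 5 libraries by a wide margin. Without it the log2 fold change of Slbp was 0.015. Chaf1b, a subunit of the chromatin assembly factor, gave 0.15.

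Of the genes that control the G1/S step, E2f1, the transcription factor that drives replication genes, was at 131, 94.2 and 146 in cKO, against 112, 104 and 52.7 in control (0.51, SE 0.37). Ccne2, cyclin E2, was listed at 0 in cKO replicate 1 and stood at 44.9 and 91.6 in cKO replicates 2 and 3, against 68.8, 103 and 53.2 in control replicates 1, 2 and 3. In cKO replicate 1 3 reads were worth 36.8 normalized counts, the level that a count of 0 allows, and the log2 fold change of -2.18 (SE 1.54) became -0.17 without that library. Ccne1, cyclin E1, gave 0.29, or -0.10 without it, and Dtl, a substrate receptor of the ligase that degrades Cdt1, -0.91, or 0.13 without cKO replicate 1.

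**Figure D3:**
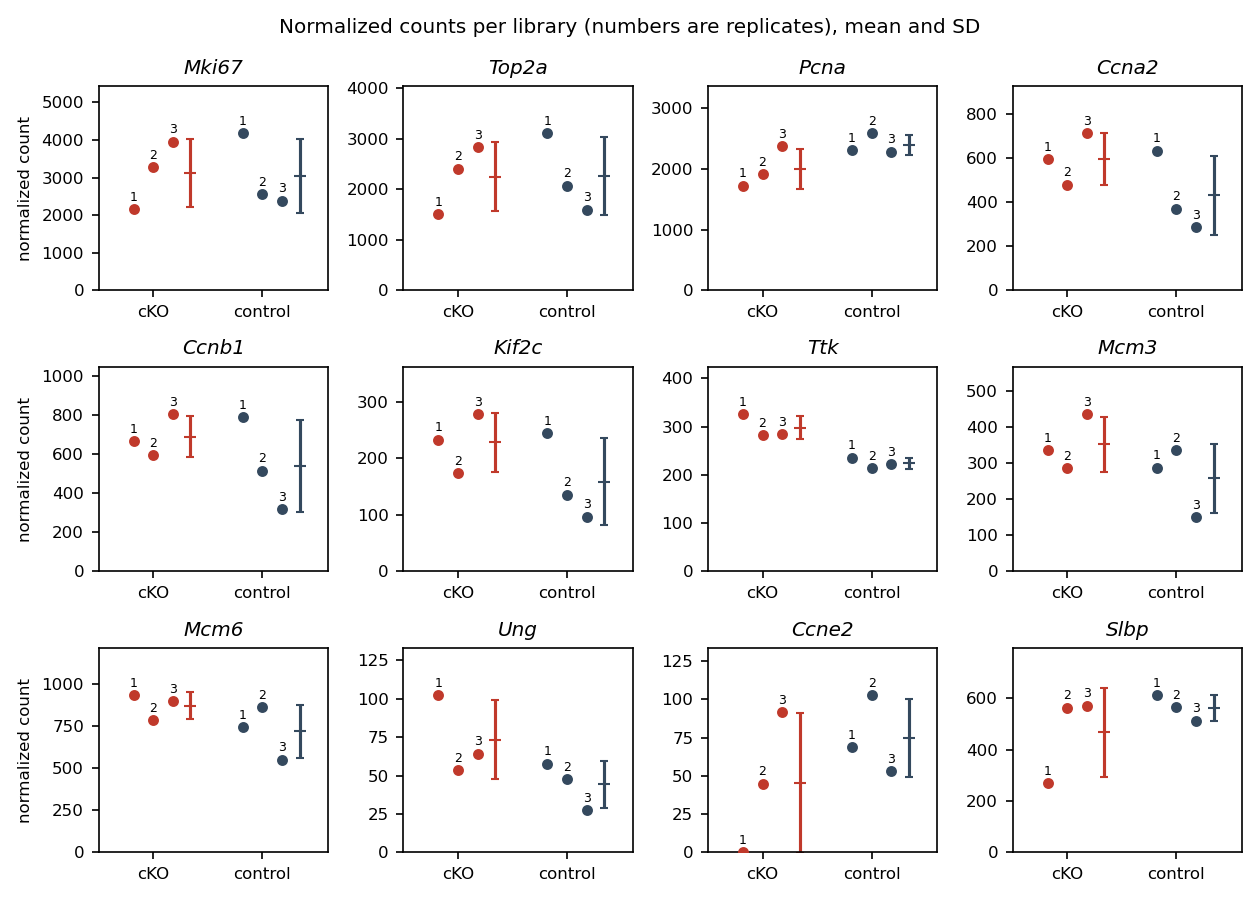
Normalized counts of 12 cell cycle genes in each library (points, numbered by replicate), with the mean and SD of 3 libraries beside them, cKO left of control and each axis starting at 0, which also ends the lower SD bar of Ccne2. Ttk is the 1 gene whose groups do not overlap; for Mki67 and Top2a control replicate 1 is the highest of all libraries.

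To describe whole libraries, a score was taken as the median over a list's genes of log2(normalized count + 1) minus the control mean of each gene. The mitosis score was -0.13, 0.15 and 0.57 in cKO replicates 1, 2 and 3, against 0.57, -0.07 and -0.53 in control replicates 1, 2 and 3. The controls thus spanned 1.10 on the log2 scale, more than the 0.69 of the cKO libraries, and the difference of the group means, 0.20 ± 0.35 in cKO and -0.01 ± 0.55 in control (SD, n = 3 each), was smaller than either SD. Within the controls all 31 mitosis genes had their highest value in replicate 1 and 30 of 31 their lowest in replicate 3, with a median ratio of 2.08 between those libraries. The replication score was -0.03, -0.0082 and 0.53 in cKO replicates 1, 2 and 3, against 0.15, 0.17 and -0.36 in control replicates 1, 2 and 3. Control replicates 1 and 2 thus had nearly the same replication score, while their mitosis scores were 0.57 and -0.07. Within each sex the mitosis score of cKO minus control was -0.56 over 2 cKO and 1 control female libraries and 0.87 over 1 cKO and 2 control male libraries, and the replication score -0.17 and 0.62, so neither difference held its direction within the sexes.

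Over the 6 libraries the replication and mitosis scores correlated at Pearson's r = 0.84 and Spearman's rho = 0.71 (n = 6, a description). Without cKO replicate 3 and control replicate 3, the libraries farthest from the median of the replication score, r was 0.41 over 4 libraries. Leaving out the extremes of a score narrows its range and tends to lower r by itself. This value therefore cannot show whether the relation rested on those 2. Without cKO replicate 1 r was 0.83. The mitosis score minus the replication score was -0.09, 0.15 and 0.04 in cKO replicates 1, 2 and 3, against 0.42, -0.24 and -0.17 in control replicates 1, 2 and 3, a wider range in the controls.

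**Figure D4:**
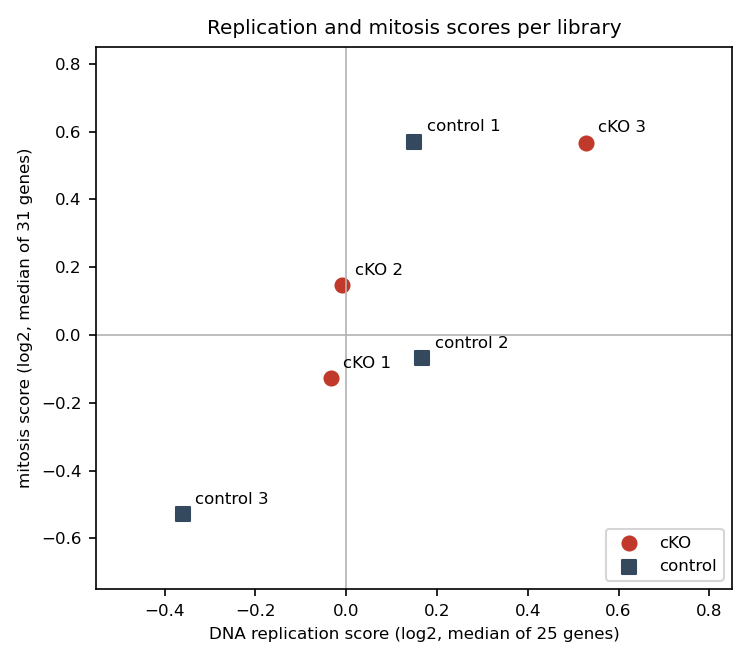
Mitosis score (median of 31 genes) against DNA replication score (median of 25 genes) in each library, both on the log2 scale against the control mean, with cKO as circles and controls as squares. cKO 3 and control 1 share the highest mitosis score of 0.57 but differ in replication score, 0.53 and 0.15, and control 3 is lowest on both.

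Of 52 further mitosis genes 39 had higher fitted values (median log2 fold change 0.18), and of 46 further replication and repair genes 33 (median 0.17, or 0.29 without cKO replicate 1), with 0 of either list at an unadjusted p under 0.05. Smallest in unadjusted p among the further mitosis genes were Cenpn, a centromere protein, at 0.89 (SE 0.46), and Sgo2a, a shugoshin that protects cohesion, at 0.73 (SE 0.39). Among the further replication genes these were Pold3, a subunit of DNA polymerase delta, at 0.45 (SE 0.24), and Prim1, a primase subunit, at 0.40 (SE 0.22). G1 cyclins and kinases had higher fitted values in 9 of 12 (median 0.22, or 0.12 without cKO replicate 1), among them the D-type cyclin gene Ccnd3 at 0.29 (SE 0.18), while Myc gave -0.43 (SE 0.26). Inhibitors of cyclin-dependent kinases and pocket proteins had higher fitted values in 4 of 9 (median -0.12, or 0.16 without cKO replicate 1). Cdkn1a, the inhibitor p21, was at 5705, 6544 and 4585 normalized counts in cKO, against 6501, 7713 and 9248 in control (-0.48, SE 0.23, limma adjusted p = 0.744), with only cKO replicate 2 inside the control range. Rb1, the retinoblastoma protein, gave -0.53, or -0.12 without cKO replicate 1. Cell cycle transcription factors were higher in 5 of 16 (median -0.30), or at a median of 0.01 without cKO replicate 1, where Lin54, the CHR-binding subunit of the DREAM and MuvB complexes, and the repressor gene E2f8 gave -0.15 and -0.19, against -0.77 and -1.32 with all libraries. None of these genes passed adjustment.

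Differentiation genes were compared with the mitosis score over libraries. The score of 6 suprabasal keratinocyte markers (Krt1, Krt10, Krtdap, Sbsn, Lor and Ivl), which report cells past the basal layer, was 0.29, 0.04 and -0.08 in cKO replicates 1, 2 and 3, against -0.95, 0.13 and 0.82 in control replicates 1, 2 and 3. Its order over the 6 libraries was exactly the reverse of the mitosis order (Spearman's rho = -1, Pearson's r = -0.88, n = 6, a description), and r was -0.91 without control replicates 1 and 3. The order at the top rests on mitosis scores of cKO replicate 3 and control replicate 1 that both round to 0.57. The replication score did not give that reversed order, with Pearson's r = -0.58 and Spearman's rho = -0.71 against the suprabasal score. The basal marker score differed less, from -0.21 to 0.10 over all libraries. Single markers and sums did not all follow this order. Krt1 was at 27247, 24980.4 and 37749 normalized counts in cKO, against 10299, 13176 and 24228 in control, highest in cKO replicate 3. It was higher in cKO without overlap, as were 5.16% of all genes (log2 fold change 0.99, SE 0.35, limma adjusted p = 0.744). Of the 6 markers 3 had higher and 3 lower fitted values, the lowest being Lor at -1.84 (SE 1.03). The sum of the 6 markers, none of them at 0, was 84996, 100847 and 96694 in cKO replicates 1, 2 and 3, against 45247, 58919 and 106471 in control replicates 1, 2 and 3. How far the share of suprabasal cells in a library enters the mitosis score was not tested.

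Markers of immune cells, which can also divide, had higher values in cKO, without overlap in 6 of 6 T cell and 3 of 6 Langerhans and myeloid markers, where 5.16% of all genes were higher without overlap, and none past adjustment (limma adjusted p = 0.744 at the smallest). Summed normalized counts of 6 T cell markers ranged over 251 to 755 in cKO, against 50.9 to 106 in control, and those of 6 Langerhans and myeloid markers over 2333 to 10884 in cKO, against 1409 to 1836 in control, with Ptprc listed at 0 in cKO replicate 1. All 6 T cell markers rested on fewer than 10 reads in cKO replicate 1. The T cell score was 2.51, 1.57 and 3.33 in cKO replicates 1, 2 and 3, against 0.49, -0.62 and 0.22 in control replicates 1, 2 and 3. The Langerhans and myeloid score was 0.47, 0.52 and 2.75 in cKO, against -0.33, 0.17 and 0.08 in control. Among the cKO libraries both scores and the mitosis score were highest in replicate 3. Over the 6 libraries the mitosis score correlated with the T cell score at Pearson's r = 0.41 and Spearman's rho = 0.31 (a description, n = 6). With the Langerhans and myeloid score r was 0.42 and rho 0.09. Without control replicates 1 and 3 (n = 4) r was 0.60 with the T cell score and 0.94 with the Langerhans and myeloid score. Without cKO replicate 1 these values of r were 0.58 and 0.42. The part of these cells in the cell cycle values was not tested. Markers of melanocytes, fibroblasts, endothelium and hair follicle matrix were low, each list summing to at most 147 normalized counts in any library, with at least 1 marker of each at 0 in cKO replicate 1.

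**Figure D5:**
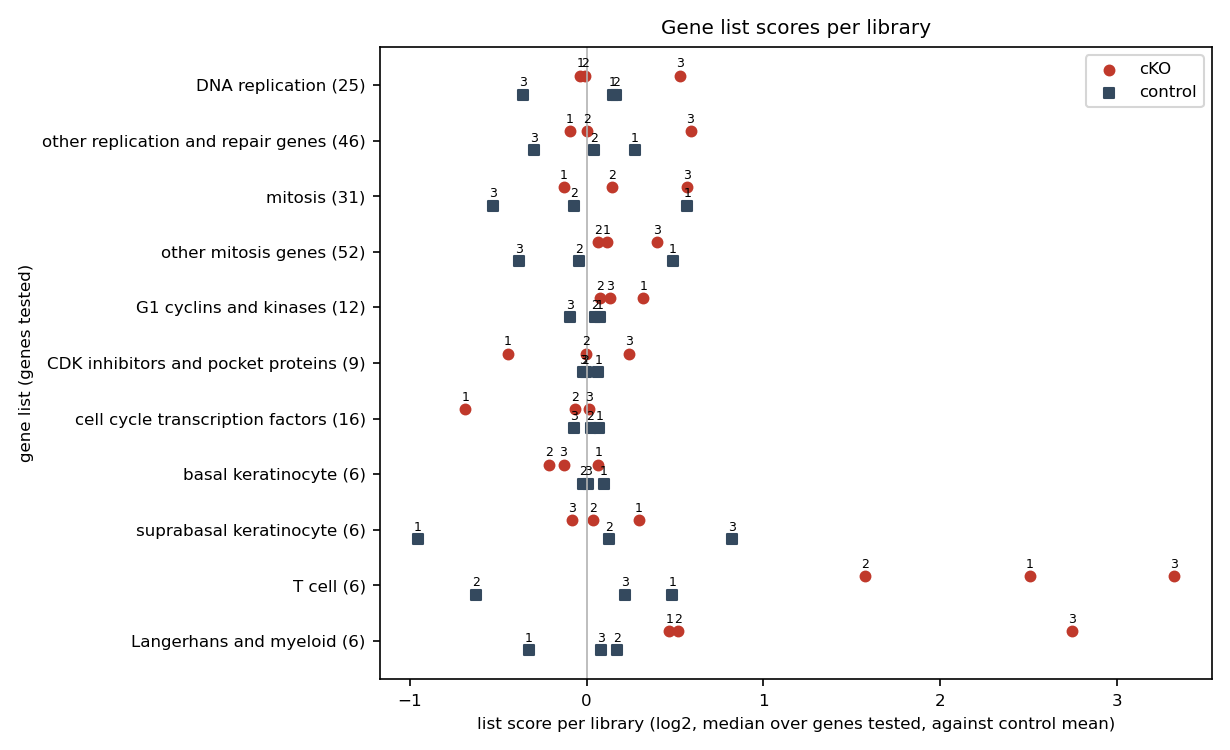
Score of each gene list per library (log2, median over the genes tested, against the control mean), with cKO as circles above controls as squares, numbered by replicate. Replication and mitosis lists overlap between the groups, suprabasal markers run from control 1 at -0.95 to control 3 at 0.82, and T cell markers are higher in all 3 cKO libraries.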

How the data were processed

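RNA-seq libraries of flow-sorted basal epidermal cells, 3 Piezo1 cKO and 3 control, were grouped by the titles in the labels. The authors used STAR and DESeq2 with the build GRCm38, per the submitters' processing notes, which give no versions or roles; counter, annotation, strand setting and filters are not stated, so overlapping genes are uncertain. Per gene and library, the authors deposited a non-negative signal, a count normalized between libraries. Low values, up to 3.5 reads, recur near multiples of a step, taken as the worth of 1 read (12.3 normalized counts in cKO replicate 1, 0.491 to 0.760 elsewhere), but between 20 and 100 reads only 9.98% to 13.7% lay within 0.05 of a whole read, so whole reads were not recovered. Of the values up to 3.5 reads, 47.6% lay that close to a whole read in cKO replicate 1, against 86.0% to 90.0% elsewhere. Read numbers given for cKO replicate 1 are therefore the least certain. Floors cover counting error only.

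Values were tested as log2(value + 1), which understates changes of low genes, with limma 3.58.1 in R 4.3.3 (trend, robust with statmod 1.5.0, no covariates, two-sided, Benjamini-Hochberg over 12239 genes with a mean of at least 10). A value listed at 0 in the shallow cKO replicate 1 works the other way and overstates a change. Ccne2 thus gave -2.18, with means of 45.5 normalized counts in cKO and 74.9 in control. The steps were run on simulated reads, drawn independently for each gene with the same dispersion for all. Genes varied together in these libraries, so that run checks the steps and not how the test performs here. Members and lists were chosen with earlier results of these data known. Genes with values in every library are Mki67, Top2a and Pcna and, per role, the gene of smallest unadjusted p and of highest mean; per pathway list the 2 of smallest p are named. Of the listed markers 1 was not matched. Exon lengths are unions of exons in GENCODE M21 (GRCm38), and promoter windows are from RefSeq (GRCm38.p6). Their orientation was checked against GENCODE transcripts, where the end of 42 of 53 member windows was found. Alternatives were the pseudocount, the filter, scaling, limma settings, limma-voom, a replicate block, each library left out and, added after seeing the data, a sex term.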

Additional observations from a re-analysis of the deposited data

Results flagged for a closer look

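Xist and Y-linked transcripts divide the libraries into female (cKO replicates 1 and 2, control replicate 1) and male (cKO replicate 3, control replicates 2 and 3), and the cell cycle lists went opposite ways in the 2. In the female libraries the mitosis score was lower in both cKO libraries than in the control (cKO minus control -0.56), whereas in the male libraries it was higher in cKO than in both controls (0.87). The replication score likewise gave -0.17 in female and 0.62 in male libraries, and the suprabasal marker score went the other way, with 1.12 in female and -0.56 in male libraries. This pattern, lower in female and higher in male cKO libraries, was seen in 24 of 31 mitosis genes and 11 of 25 replication genes, where 10.5% of all 12239 genes tested showed it. Its opposite was seen in 0 of the 56, against 7.3% of all genes. These counts restate the scores, since control replicate 1, the 1 female control, was the highest control in all 31 mitosis genes. The difference between the sexes was not tested, and with 1 control library in the female and 1 cKO library in the male set, sex and single libraries cannot be told apart.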

How the results depend on the processing

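No replication or mitosis gene, and no gene of the 5 other lists, passed adjustment under any of 16 alternatives (pseudocount, filter, scaling, limma settings, limma-voom, replicate block, sex term, each library left out). Among all genes 0 passed, except 1 without cKO replicate 2, so leaving out a library gave 0 to 1. With the replicate number as a block, 0 genes passed and the medians stayed at 0.15 (replication) and 0.23 (mitosis). The labels do not say whether same-numbered libraries are paired. Across genes, the correlations of their deviations from the group means were 0.09, -0.15 and 0.07. Among 3 pairs only the libraries numbered 1 correlated best with each other. With 3 libraries per group these values cannot decide whether the libraries are paired. Leaving out 1 library gave a median of -0.08 to 0.29 for replication, -0.05 to 0.47 for mitosis and -1.53 to -1.09 for Piezo1. The correlation of the 2 scores was 0.66 to 0.91 when a library was left out, lowest without control replicate 3. limma-voom gave a median of 0.10 over all genes, where the value reported was -0.03, and 0.27 for replication and 0.43 for mitosis.

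Of 544 values of 34 named genes under alternatives 515 kept their sign and 29 changed it, in 11 genes, none of them called. Under limma-voom these were Slbp (0.013) and Kif23 (0.10). With the sex term they were Top2a (-0.033), Cenpf (-0.080) and Krt5 (-0.040). The rest came from leaving out 1 library, with ranges of -0.15 to 0.30 for Mki67, -0.22 to 0.26 for Top2a, -0.28 to 0.45 for Cenpf, -0.10 to 0.32 for Rrm1, -0.094 to 0.35 for Bub1b, -0.53 to 0.015 for Slbp, -0.51 to 0.036 for Prc1, -0.49 to 0.13 for Kif23, -0.40 to 0.12 for Anln, -0.061 to 0.059 for Krt5 and -0.14 to 0.26 for Krt14. Over all 56 members more signs changed: 14 turned without cKO replicate 1. Under limma-voom 21 of 25 replication and 29 of 31 mitosis genes had higher fitted values, against 16 and 24 in the fit reported. The share of all genes tested with higher values also rose, to 63.4% under limma-voom from 47.1% in the fit reported. Depth in cKO replicate 1 limits Mcm10, Cdc6, Cdc45, Ccne2 and Dtl most.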
